A study of Mus musculus with 4 samples.

Results

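The genes described here handle iron and heme in the mouse macrophage. They are the transferrin receptor Tfrc, the heme-degrading enzyme Hmox1, the ferritin chains Fth1 and Ftl1, the iron exporter Slc40a1, the iron transporters Slc11a1 and Slc11a2, the iron sensors Aco1 and Ireb2, and the biliverdin reductase Blvrb. These 10 genes were chosen by name and not by a cut on their values, though earlier results of these data were known. Of them 9 are among the 18194 genes with a probe set of their own, and Ftl1 shares its probe sets with a near-identical copy. All probe sets annotated with one of the symbols were taken, which gave 24 of the 45101 on the array. RAW264.7, a macrophage line from a mouse leukemia, was kept for 4 days under normoxia without cytokine (NC), normoxia with IL6 at 25 ng/ml (NC+IL6), hypoxia of 1% O2 without cytokine (HC), or that hypoxia with IL6 at 25 ng/ml (HC+IL6). How much oxygen the normoxic cells had is not given in the sources used. RNA of each condition was hybridized to 1 Affymetrix mouse expression array, to compare the expression of the cells after IL6 in both oxygen conditions. RAW264.7 is 1 transformed line and is known to carry an allele of Slc11a1 whose protein does not work, so that its Slc11a1 signal reports the transcript and not transport.

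Macrophages take iron from transferrin through the transferrin receptor and from heme by breaking down the hemoglobin of old red cells, store it inside ferritin shells, and release it through ferroportin, the protein of Slc40a1. Iron regulatory proteins, made from Aco1 and Ireb2, bind to hairpins in mRNAs when iron is scarce, which keeps the Tfrc transcript stable and holds back the translation of ferritin and ferroportin. Much of this regulation therefore acts on mRNA stability, translation or protein, and an array sees the transcript level only. IL6 is best known in iron biology for inducing hepcidin in the liver, a hormone that removes ferroportin from the cell surface. Hypoxia stabilizes the HIF transcription factors, for which Hmox1 and Tfrc are known targets.

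Each value is the log2 of a MAS5 signal, which combines the probes of 1 probe set after subtraction of local background, and a difference of 1 on this scale is a 2-fold change in signal. Every array had been scaled to the same trimmed mean signal of 500. To separate signal from background, a floor was drawn for each array such that 95% of the 112 probe sets of other tissues' genes fell below it. On the log2 scale this floor was 7.21 for NC, 7.50 for NC+IL6, 7.24 for HC and 7.35 for HC+IL6. Between 31.4% and 35.5% of all probe sets were above it. With 1 array per condition there were no replicates and no test could be made, so that condition and array cannot be told apart and every fold below compares 2 arrays. The one error at hand was the disagreement between probe sets of the same gene, whose pooled SD of the log2 ratio was 0.32 for HC against NC, 0.29 for HC+IL6 against NC+IL6, 0.25 for NC+IL6 against NC and 0.29 for HC+IL6 against HC. It says nothing of the spread between cultures. A bulk signal also cannot tell fewer transcripts per cell from fewer cells that carry them. Each gene was represented by its brightest probe set, and a fold of 2 or more with the brighter array above the floor was counted as past the threshold. A dimmer signal below its floor was lifted to the floor first, and the fold is then written as at least that size.

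Among these genes Hmox1 differed most between the conditions, with its signal higher on the arrays with IL6 and, to a lesser extent, on the hypoxic ones. Blvrb and Slc11a1 were higher on the NC+IL6 array than on the NC array by less than 2-fold. The ferritin signals were nearly level apart from 1 shared Ftl1 probe set, the probe sets of Tfrc and Slc11a2 disagreed on hypoxia, and Slc40a1 was above the floor in HC alone.

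Of the 24 probe sets, 16 were above the floor on all 4 arrays, 2 on some arrays and 6 on none. By gene, 9 of the 10 had a probe set of their own, and 8 of these were above the floor on every array, the exception being Slc40a1. In HC against NC, 1 of 9 genes above the floor was past 2-fold higher and 0 were past 2-fold lower, beside 3.22% higher and 1.06% lower among all 8793 genes above the floor. In HC+IL6 against NC+IL6, 0 of 8 were past the threshold in either direction, beside 2.24% higher and 1.33% lower among all genes. IL6 in normoxia left 1 of 8 past 2-fold higher and 0 lower, where all genes gave 3.27% and 0.875%, and IL6 in hypoxia left 1 of 9 higher and 0 lower, where all genes gave 2.23% and 1.66%. The gene was Hmox1 each time. With so few genes a single one decides the share. The median log2 ratio of the genes above the floor was 0.08, 0.05, 0.24 and 0.13 in these 4 comparisons, and that of all genes was 0.04, 0.00, -0.03 and -0.03. The split of all genes past 2-fold depended on the scaling between arrays in the hypoxia comparisons. In HC against NC 75.3% of them were higher as deposited but 58.6% after quantile normalization, 61.8% after cyclic loess and 64.2% after centring. With IL6 present the share was 62.8% as deposited and 51.6%, 51.0% and 53.5% under the same settings.

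**Figure D1:**
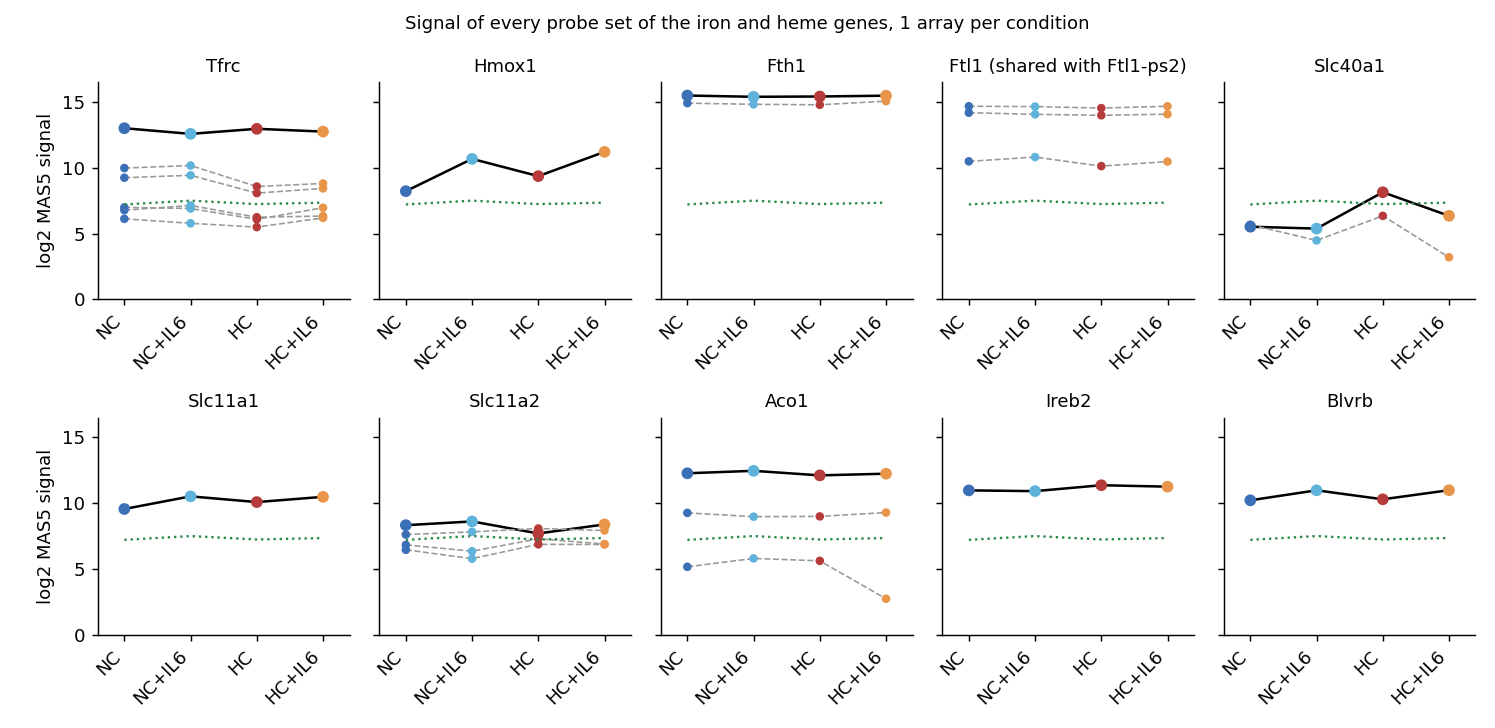
Log2 MAS5 signal (vertical axis) of each probe set of the 10 iron and heme genes on the NC, NC+IL6, HC and HC+IL6 arrays, 1 array per condition, with the brightest probe set of a gene in black, its other probe sets and all shared ones dashed in grey, and the background floor dotted in green. Hmox1 runs from 8.22 in NC to 11.21 in HC+IL6, Slc40a1 is above the floor in HC alone, and the ferritin lines are nearly flat except the lowest of Ftl1, which runs from 10.13 to 10.82.

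Heme breakdown gave the widest span among the genes above the floor on every array. Hmox1 (chr8:75093618-75100593, GRCm38.p6) encodes heme oxygenase 1, the inducible enzyme that opens heme to biliverdin, carbon monoxide and free iron. Its single probe set gave log2 signals of 8.22 (NC), 10.68 (NC+IL6), 9.37 (HC) and 11.21 (HC+IL6). The order was NC, HC, NC+IL6, HC+IL6, so that both arrays with IL6 lay above both without it, and each hypoxic array lay above the normoxic one with the same cytokine. IL6 went with a 5.48-fold higher signal in normoxia and a 3.59-fold higher signal in hypoxia. Hypoxia went with a 2.21-fold higher signal without IL6 and a 1.45-fold higher signal with it, the latter under the threshold. HC+IL6 was 7.93-fold above NC. The hypoxia log2 ratio was 1.14 without IL6 and 0.53 with it, a difference of -0.61 that was not tested. All neighbours in the order of the 4 levels were thus further apart than the SD between probe sets, although no second probe set of Hmox1 stood beside this one. HC against NC and NC+IL6 against NC share the NC array, which was the lowest. Across the other scalings and floors tried, the HC against NC fold ranged from 2.01 to 2.21 and the fold for IL6 in normoxia from 5.15 to 5.72.

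Blvrb (chr7:27447978-27465981) makes biliverdin reductase B, which reduces flavins and biliverdin of the kind formed in early life. The 250 bases before its first start site, from RefSeq's table of promoter windows for GRCm38.p6, are shown as the promoter of a gene whose arrays with IL6 lay above those without. The sequence runs 5′ to 3′ on the plus strand, and capitals mark the HIF core GCGTG on either strand, the one motif of those searched below that was found in it.
Blvrb upstream window, chr7:27447728-27447977: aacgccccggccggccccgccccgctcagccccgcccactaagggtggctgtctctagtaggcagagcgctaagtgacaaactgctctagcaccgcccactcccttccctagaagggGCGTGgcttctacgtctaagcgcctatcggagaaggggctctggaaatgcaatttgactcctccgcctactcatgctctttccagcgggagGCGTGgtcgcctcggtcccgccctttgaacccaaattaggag
Its log2 signals of 10.22 (NC), 10.98 (NC+IL6), 10.30 (HC) and 10.99 (HC+IL6) fell into a lower pair without IL6 and a higher pair with it. IL6 went with 1.69-fold in normoxia and 1.62-fold in hypoxia, both beyond the SD between probe sets and both under 2-fold. The log2 ratios for hypoxia were 0.08 and 0.01, within that SD, and no order is read within each pair. By their log2 ratios to IL6, Hmox1 and Blvrb had the same sign in both oxygen conditions, but those of Hmox1 were 2.46 and 1.84 against 0.76 and 0.69 for Blvrb.

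The 3 genes whose profile over the 4 arrays was closest to that of Hmox1 were sought among 1117 genes above the floor on every array and with a span of at least 1, by the root mean square difference of the centred log2 signals. They were Bst1 at 0.14, Fcgr2b at 0.17 and Socs3 at 0.18. Bst1, a cell surface enzyme of nucleotide breakdown, had 8.21, 10.35, 9.35 and 11.23 in the same order of arrays as above. Socs3, an inhibitor of cytokine receptor signaling, had 10.36, 12.59, 11.26 and 13.55, and Fcgr2b, an inhibitory antibody receptor, had 9.95, 12.07, 10.68 and 12.53. A likeness over 4 arrays is a description of these arrays.

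**Figure D2:**
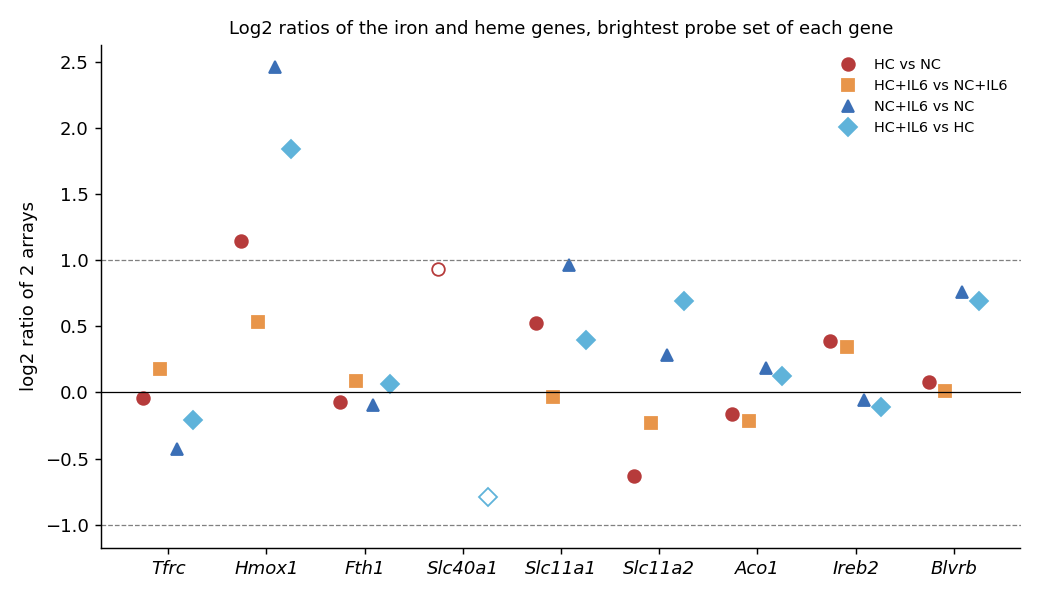
Log2 ratio of 2 arrays (vertical axis) for the brightest probe set of the 9 genes with a probe set of their own, for hypoxia (HC vs NC without IL6, HC+IL6 vs NC+IL6) and for IL6 (NC+IL6 vs NC in normoxia, HC+IL6 vs HC), with dashed lines at 2-fold and open symbols where the dimmer array was raised to the floor. Only points of Hmox1 lie beyond the dashed lines, at 1.14, 2.46 and 1.84.

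Among the uptake genes, Tfrc (chr16:32608896-32632794) gave different answers with different probe sets. It encodes the receptor that brings transferrin with its iron into the cell. RefSeq's table of promoter windows holds 2 overlapping windows for Tfrc. The stretch before the first start site is shown because Tfrc is a known HIF target, and it holds 2 matches to the second HIF core searched, GCGTG. The 30 bases across that start site are shown because they hold the one match in either window to the first HIF core, ACGTG, at chr16:32608894-32608898. Capitals mark the cores on either strand, and both sequences run 5′ to 3′ on the plus strand of GRCm38.p6.
Tfrc upstream window, chr16:32608646-32608895: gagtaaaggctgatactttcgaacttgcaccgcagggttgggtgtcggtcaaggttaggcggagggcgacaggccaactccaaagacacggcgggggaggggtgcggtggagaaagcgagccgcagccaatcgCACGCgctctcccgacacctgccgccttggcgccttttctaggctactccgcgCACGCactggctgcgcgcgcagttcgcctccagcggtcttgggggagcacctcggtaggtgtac
Tfrc start site, chr16:32608881-32608910: cctcggtaggtgtACGTGcggaaggaagtg
In windows of 250 bases, ACGTG on either strand was in 16.6% of all 32851 promoters and GCGTG in 28.2%, and 2 and 5 of the 10 windows of the iron and heme genes held them. These letters are common, and a match is not a binding site.

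Tfrc had 6 probe sets, of which 3 were above the floor on all arrays. The brightest, 1452661_at, had 13.01 (NC), 12.58 (NC+IL6), 12.97 (HC) and 12.76 (HC+IL6). Its log2 ratios for hypoxia were -0.04 without IL6 and 0.17 with it, within the SD between probe sets, and the former turned to 0.07 after quantile normalization and 0.06 after cyclic loess. On this probe set the array pairs to be compared for hypoxia thus lay close together, while IL6 in normoxia gave -0.43.

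A second probe set, 1422966_a_at, had 9.98 (NC), 10.17 (NC+IL6), 8.58 (HC) and 8.81 (HC+IL6). Both hypoxic arrays lay below both normoxic ones, by 2.65-fold without IL6 and by 2.57-fold with it. The third was the manufacturer's control probe set named for the 3′ part of the transferrin receptor transcript, with 9.25, 9.43, 8.08 and 8.44 on the same arrays. On it HC lay 2.25-fold below NC, and HC+IL6 lay 1.99-fold below NC+IL6. The 2 dimmer probe sets therefore shared 1 order, with hypoxia below normoxia, that the brightest one did not have. Their log2 ratios for IL6 were between 0.18 and 0.36. The difference between the hypoxia log2 ratios of 1422966_a_at and of 1452661_at, -1.40 and -0.04, is larger than the SD of 0.32 found between probe sets of 1 gene. After quantile normalization and cyclic loess 1422966_a_at was at -1.53 and -1.50. The files do not say which part or splice form of the transcript each probe set covers.

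The remaining 3 probe sets of Tfrc, among them the controls named for the middle and 5′ parts of the transcript, were under the floor on every array, with log2 signals between 5.49 and 7.14. They have no usable fold. Because the count by gene uses the brightest probe set, Tfrc is not among the genes past 2-fold, and the mean over its 3 probe sets above the floor was a log2 ratio of -0.87 for HC against NC and -0.73 for HC+IL6 against NC+IL6. As a sign of RNA quality, the 3′ signal of Actb over its 5′ signal was 1.54 (NC), 1.41 (NC+IL6), 1.73 (HC) and 1.62 (HC+IL6), higher on the hypoxic arrays, and its part in the Tfrc values was not tested. For Gapdh the same ratio ran from 0.87 to 0.93 and was lower on the hypoxic arrays.

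**Figure D3:**
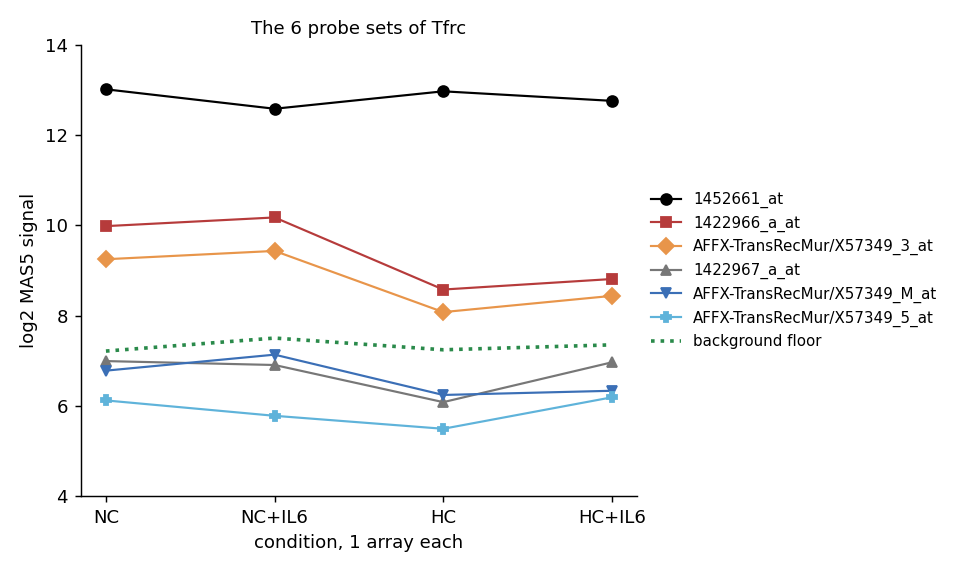
Log2 MAS5 signal (vertical axis) of the 6 probe sets of Tfrc on the 4 arrays, 1 array per condition, with the background floor dotted. The probe sets 1422966_a_at and that of the 3′ part are lower on both hypoxic arrays, by 1.99-fold to 2.65-fold, while 1452661_at stays between 12.58 and 13.01.

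Slc11a1 (chr1:74375014-74386057) encodes the metal transporter of the phagosome membrane, which draws iron and manganese away from engulfed microbes. Its single probe set had 9.56 (NC), 10.52 (NC+IL6), 10.09 (HC) and 10.48 (HC+IL6). NC was the lowest array, and the pair with IL6 was nearly level. IL6 went with 1.95-fold in normoxia, just under the threshold, and with 1.32-fold in hypoxia. Hypoxia went with 1.44-fold without IL6 and a log2 ratio of -0.04 with it, a difference of -0.56 that was not tested. With log2 ratios centred on the median, Slc11a1 passed 2-fold for IL6 in normoxia.

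Slc11a2 (chr15:100387898-100424209) encodes the transporter that moves iron out of endosomes after transferrin uptake, and it is known to be made in splice forms with and without an iron-responsive hairpin. It had 4 probe sets that differed from each other. The brightest, 1452078_a_at, had 8.33 (NC), 8.61 (NC+IL6), 7.70 (HC) and 8.39 (HC+IL6), with the HC array lowest. Its log2 ratio was -0.63 for HC against NC, -0.23 for HC+IL6 against NC+IL6, and 0.69 for IL6 in hypoxia. The probe set 1417584_at had 7.62, 7.82, 8.08 and 7.93 on the same arrays, with HC highest and a log2 ratio of 0.46 for HC against NC. These 2 ratios have opposite signs, and as deposited both are beyond the SD between probe sets of 1 gene. After quantile normalization and cyclic loess 1417584_at was at 0.21 and 0.25, within the SD, and 1452078_a_at at -0.85 and -0.81. Over the probe sets above the floor the mean was -0.03. The probe set 1426441_at was above the floor in HC alone, at 7.30, and 1441709_at was under it on every array, so neither settles the sign. No direction for hypoxia can be given for Slc11a2 as a gene.

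The storage genes gave even signals over the 4 conditions, with the exception of 1 shared probe set of Ftl1. Fth1 (chr19:9980600-9985111) encodes the heavy ferritin chain, which oxidizes iron on its way into the shell. Its brightest probe set had 15.50 (NC), 15.40 (NC+IL6), 15.42 (HC) and 15.49 (HC+IL6), with log2 ratios between -0.10 and 0.09. All were within the SD between probe sets. The highest value of any probe set was 15.71 in NC and 15.54 in NC+IL6, so these signals lay near the top of the scale. The second probe set of Fth1 had 14.92, 14.83, 14.79 and 15.07.

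Ftl1 (chr7:45457944-45459886) encodes the light ferritin chain, which supports the mineral core. It was measured only by 3 probe sets that also carry the symbol Ftl1-ps2, a near-identical copy, so the signal could not be assigned to Ftl1 alone. The first, 1418364_a_at, had 14.68 (NC), 14.66 (NC+IL6), 14.54 (HC) and 14.68 (HC+IL6). The second, 1422302_s_at, had 14.19, 14.07, 13.99 and 14.08. The third, 1422301_at, which also carries Mir692 symbols, had 10.49, 10.82, 10.13 and 10.48, with log2 ratios of -0.36 and -0.34 for hypoxia and 0.33 and 0.35 for IL6. On the first and the second probe set the 4 arrays were level within the SD, and on the third the conditions were further apart but short of 2-fold.

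The export gene was above the floor on 1 array. Slc40a1 (chr1:45908070-45926532) encodes ferroportin, the iron exporter of the cell surface. The probe set 1417061_at had 5.52 (NC), 5.38 (NC+IL6), 8.14 (HC) and 6.35 (HC+IL6), and the HC array alone was above its floor. HC was therefore at least 1.90-fold above NC and at least 1.73-fold above HC+IL6, neither past the threshold. No fold can be given for the 2 arrays with IL6, which were both under the floor. The second probe set, 1448566_at, was under the floor throughout but also had its highest value, 6.35, in HC, beside 5.67 for NC, 4.48 for NC+IL6 and 3.20 for HC+IL6. The size of the bound, and whether HC alone is above background, rest on the floor. A floor set without the 4 background genes above it was 6.08 for HC+IL6, and the HC+IL6 signal of 6.35 then lay above it too. Without any floor the log2 ratio was 2.62 for HC against NC and -1.79 for HC+IL6 against HC.

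The sensors lay within 2-fold in every comparison. Aco1 (chr4:40143265-40199009) encodes iron regulatory protein 1, which doubles as the cytosolic aconitase when it holds an iron-sulfur cluster. Its brightest probe set had 12.28 (NC), 12.46 (NC+IL6), 12.12 (HC) and 12.24 (HC+IL6), with all 4 log2 ratios between -0.22 and 0.19. The probe set 1423644_at had 9.27, 8.98, 9.00 and 9.29, with log2 ratios of -0.27 and 0.31 for hypoxia without and with IL6. For IL6 it had -0.29 in normoxia and 0.29 in hypoxia. It differed in sign from the brightest probe set for hypoxia with IL6 and for IL6 in normoxia. The last one was under the floor on every array. Aco1 thus showed no difference that its own probe sets shared and that exceeded the SD.

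Ireb2 (chr9:54862658-54912534) encodes iron regulatory protein 2, which is degraded when iron and oxygen are plentiful. Its single probe set had 10.98 (NC), 10.92 (NC+IL6), 11.37 (HC) and 11.26 (HC+IL6). Both hypoxic arrays lay above both normoxic ones, with log2 ratios of 0.39 without IL6 and 0.34 with it, slightly beyond the SD of 0.32 and 0.29. After centring both were within the SD, the one with IL6 at 0.28. After quantile normalization they were 0.42 and 0.37, and after cyclic loess 0.41 and 0.35. The log2 ratios for IL6, -0.06 and -0.11, were within the SD.

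The RefSeq table gave promoter windows for 7 of the 10 genes, 10 windows in all, and none for Hmox1, Slc40a1 and Slc11a2. Neither the antioxidant response motif TGACNNNGC nor the STAT motif TTCNNNGAA was in any of the 10, and these were in 10.2% and 7.02% of all windows. This says only that these letters are not in these 250 bases.

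Around these genes, a wider list of 94 iron and heme genes was set out by role, and 84 had a probe set of their own. Of these, 58 were above the floor on at least 1 array. In HC against NC, 3 of 57 were past 2-fold higher and 3 lower, beside 3.22% and 1.06% of all genes, with a median log2 ratio of 0.03. In HC+IL6 against NC+IL6, 2 of 56 were higher and 0 lower, beside 2.24% and 1.33% of all genes, with a median of -0.01. IL6 in normoxia left 2 of 55 higher and 0 lower, beside 3.27% and 0.875% of all genes. IL6 in hypoxia left 4 of 58 higher and 0 lower, beside 2.23% and 1.66%. Both medians for IL6 were -0.01. With counts this small, 1 or 2 genes set each share. Without the 10 genes above, the medians of the list were 0.03 in HC against NC and -0.03 in the other comparisons, near those of all genes.

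Heme synthesis held all the genes of the list past 2-fold lower in hypoxia. Of its 9 genes above the floor in HC against NC, 7 had a negative log2 ratio, 3 were past 2-fold lower and 0 higher, and the median was -0.19, where 1.06% of all genes were past 2-fold lower and their median was 0.04. With IL6 present 7 of 9 were negative, though not the same 7, 0 were past 2-fold and the median was -0.30, beside 0.00 for all genes. Fech was at -0.03 without IL6 and 0.03 with it, and Slc25a38 at 0.18 and -0.52. Clpx was positive in both, at 0.19 and 0.84, and its other probe set had at least 0.30 with IL6. Among the negative ratios, those of Uros and Alas1 were within the SD between probe sets in both comparisons. Alad, the enzyme that joins 2 molecules of aminolevulinic acid, had 11.31 (NC), 11.21 (NC+IL6), 10.29 (HC) and 10.26 (HC+IL6), so that the hypoxic pair lay 2.02-fold and 1.93-fold below the normoxic one. Abcb6, a porphyrin transporter, had 9.69, 10.01, 8.27 and 9.04 and was 2.69-fold lower without IL6 and 1.96-fold lower with it. Cpox, which makes protoporphyrinogen in the mitochondrion, had 8.96, 9.36, 7.34 and 8.97, with HC alone low. HC lay 3.09-fold below NC and 3.10-fold below HC+IL6 on this probe set. On its other probe set HC+IL6 against HC had a log2 ratio of 0.19, and NC was under the floor, so that HC lay above it by at least 0.09, the opposite direction. Alas1, the first enzyme of the pathway, had 8.83, 9.42, 8.64 and 9.28 and was within 2-fold throughout. The hypoxia comparisons with IL6 and without it share no array. The count of 3 past 2-fold lower in HC against NC depended on the setting. It was 2 with the background median added to every signal, with the floor doubled, and with the mean over probe sets. Alad was just past the threshold, and the HC signal of Cpox, 7.34, was close to its floor of 7.24.

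Uptake, regulation and mitochondrial import each held genes past 2-fold. Lrp1, the receptor that clears heme bound to hemopexin, had 9.21 (NC), 8.94 (NC+IL6), 10.58 (HC) and 10.62 (HC+IL6), and was 2.58-fold and 3.21-fold higher in hypoxia, while on its other probe set the NC signal was under the floor, with a log2 ratio of at least 0.28 for HC against NC. Slc25a37, mitoferrin 1 of the inner mitochondrial membrane, had 8.22, 8.61, 9.40 and 9.20 and hypoxia gave 2.28-fold without IL6 and 1.50-fold with it. Bmpr2, a receptor of bone morphogenetic proteins, which control hepcidin in the liver, had 9.77, 9.35, 10.75 and 10.63, and hypoxia gave 1.97-fold and 2.44-fold. Its other probe set was under the floor on both normoxic arrays, and the log2 ratio for HC against NC was at least 0.45. On their brightest probe sets these 3 genes had both hypoxic arrays above both normoxic ones. Slc39a14, a zinc and iron importer, had 9.60, 10.39, 9.83 and 11.18, and IL6 went with 1.73-fold in normoxia and 2.56-fold in hypoxia. Its other probe sets had log2 ratios for IL6 of 0.66 and 0.33 in normoxia and 0.62 and at least 0.65 in hypoxia. Id1, a transcriptional regulator and target of the same bone morphogenetic protein pathway, had 6.68, 9.15, 8.20 and 10.00 and was at least 3.84-fold and 3.48-fold higher with IL6. Hamp, the hepcidin gene, was under the floor on every array. Its brightest probe set lay between 5.27 and 6.21 and its other one between 2.90 and 5.55.

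**Figure D4:**
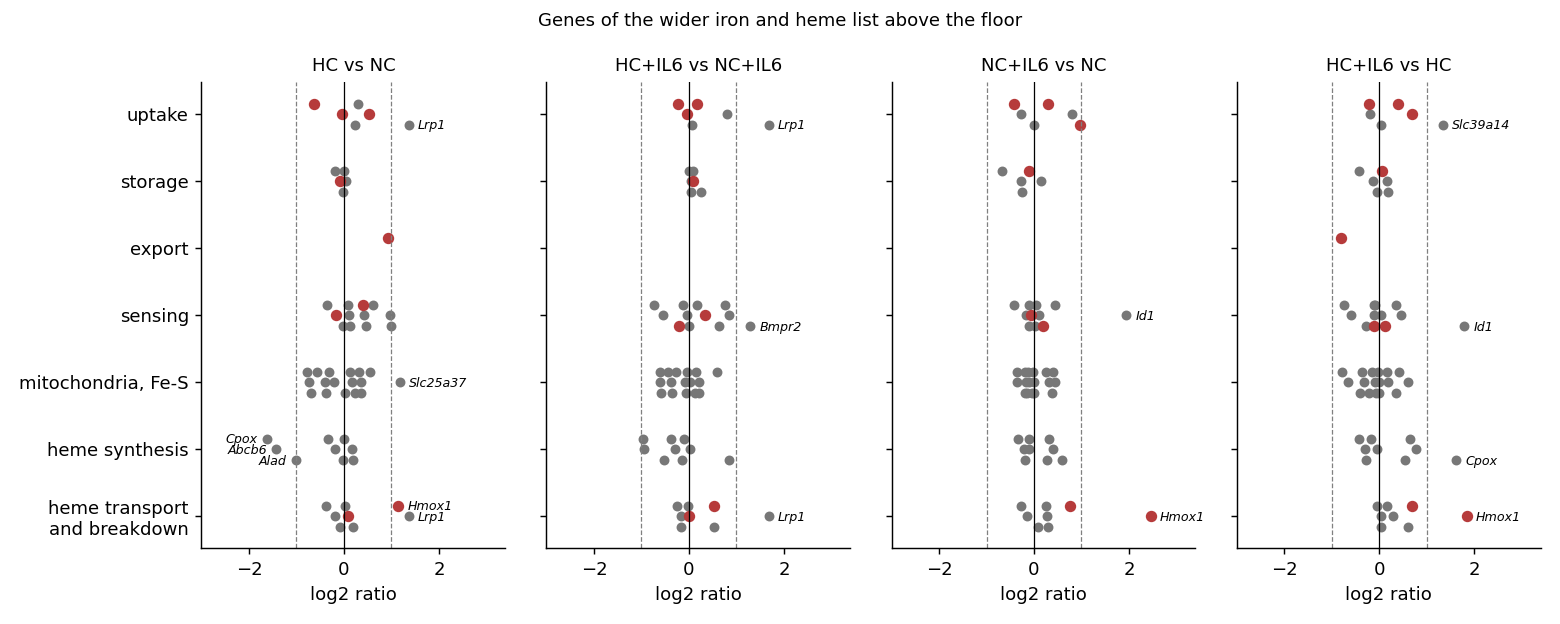
Log2 ratio of 2 arrays (horizontal axis) for each gene of the wider iron and heme list above the floor, by role, in the 4 comparisons, with the genes described above in red, all others in grey, dashed lines at 2-fold and names for the genes beyond them. In HC vs NC the 3 genes past 2-fold lower are all in heme synthesis, and in both comparisons of IL6 none is past 2-fold lower.

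The cells carried macrophage transcripts in every condition. All 10 macrophage markers were above the floor on all arrays, and their summed signal was between 124079 and 133802. Single markers moved more than this sum. Itgam had 8.43 (NC), 9.43 (NC+IL6), 10.08 (HC) and 11.12 (HC+IL6), and Fcgr3 had 10.36, 11.66, 12.16 and 12.76, so that both were higher with IL6 and in hypoxia, as Hmox1 was. No other marker was higher both with IL6 and in hypoxia throughout. Mpeg1, with 12.87, 12.17, 13.51 and 12.47, was lower with IL6 and higher in hypoxia. Csf1r, Ptprc and Spi1 were also lower with IL6 in both oxygen conditions. The part of these markers in the Hmox1 values was not tested. Of 10 erythroid markers, whose cells carry much Tfrc and heme synthesis, 6 had a probe set of their own and 0 were above the floor on any array, with a summed signal of 44 to 118, and the adult hemoglobin gene Hba-a1 was between 1.86 and 3.29 on the log2 scale. Rhag was listed at 0 in NC+IL6. Of 6 hepatocyte markers 5 had a probe set and 0 were above the floor, with a summed signal of 112 to 139.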

How the data were processed

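The authors deposited 1 table of log2 signals, made with MAS5 (version not given in the sources used here) from 1 array per condition, scaled per array and log2 transformed. The common trimmed mean of 500, with 2% trimmed at each end, was read from the values. Signals of 1 or less are listed as 0, which is the case for 256 to 437 probe sets per array. Gene symbols came from a platform annotation that lists 35890 probe sets, 34958 with 1 symbol and 932 with several, while 9211 are not listed. Those with several symbols were kept out of the counts by gene. Gene positions and promoter windows came from RefSeq for GRCm38.p6.

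Python 3.11.15 (numpy 2.4.6, pandas 2.3.3) was used for ratios, limma 3.58.1 under R 4.3.3 for the 2 other scalings, and matplotlib 3.10.9 for figures. The floor used 68 of 74 listed genes of other tissues, 4 of which had a probe set above it on some array. No test was run, since each condition had 1 array. The calculations were tested on simulated arrays with known shifts. These shifts were larger than 2-fold and in probe sets well above the floor. Folds near the threshold and signals near the floor were thus not simulated. Lifting a signal to the floor was checked on a few made-up values only. The genes described are the 10 named and the 3 genes most like Hmox1, beside the cell type markers. Genes of the wider list past 2-fold in any of 4 comparisons are described too. Alas1, Clpx, Fech, Hamp, Slc25a38 and Uros were added after their values were seen. Abcb8, Isca1 and again Slc25a38 were listed by their values, for opposite directions of IL6 in normoxia and in hypoxia. These genes and lists were chosen with earlier results of these data known. Alternatives were the scaling (quantile, cyclic loess, centring), the floor (none, doubled, the background median added to every signal), and the mean over probe sets. The number of arrays limits the precision.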

Additional observations from a re-analysis of the deposited data

Results flagged for a closer look

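For 3 genes of the wider iron and heme list, IL6 went with opposite directions in normoxia and in hypoxia, each beyond the SD between probe sets of 1 gene. With 1 array per condition the difference was not tested. How many of all genes do so was not counted, so the number 3 is not read as a result about this list. The quartiles of all genes above the floor were -0.24 and 0.21 for IL6 in normoxia and -0.27 and 0.21 in hypoxia, not far inside that SD. Abcb8, an inner membrane transporter of mitochondria known for iron export from them, had a log2 ratio of -0.35 for NC+IL6 against NC and 0.61 for HC+IL6 against HC. Isca1, a factor of mitochondrial iron-sulfur cluster assembly, had -0.36 and 0.42, but its other probe set had 0.33 and 0.22. Slc25a38, the glycine carrier that feeds heme synthesis, had 0.28 and -0.43. Among the 9 iron and heme genes with a probe set of their own, none did so beyond that SD on its brightest probe set. The second probe set of Aco1, 1423644_at, had -0.29 and 0.29, just beyond the SD of 0.25 and 0.29, while the brightest one had 0.19 and 0.13.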

How the results depend on the processing

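No paired analysis was possible because each condition had 1 array and no replicate numbers, and for the same reason no array could be left out. Among the 10 genes, no log2 ratio that was past 2-fold turned its sign under any setting tried. Hmox1 was past 2-fold in HC against NC, NC+IL6 against NC and HC+IL6 against HC in every one. The count of the 10 genes past 2-fold moved in 3 comparisons. NC+IL6 against NC had 2 higher (Hmox1 and Slc11a1) after centring. HC against NC had 2 higher (Hmox1 and Slc40a1) and HC+IL6 against HC had 1 lower (Slc40a1) both with no floor and with a floor set without the 4 background genes above it, a setting chosen after seeing the data. Slc40a1 is thus past 2-fold or not by the choice of floor. Of these counts and the medians of the wider list under all settings, the other 91 stayed within 1.5 times the count or within the SD between probe sets. Without a floor the wider list gave 11 higher and 8 lower in HC against NC, 8 and 4 in HC+IL6 against NC+IL6, 8 and 5 for IL6 in normoxia, and 11 and 7 for IL6 in hypoxia. With the floor set after seeing the data, HC against NC had 6 higher, HC+IL6 against NC+IL6 had 4 higher and HC+IL6 against HC had 1 lower, where the report gives 3, 2 and 0. With the mean over probe sets, HC+IL6 against NC+IL6 had 1 higher and HC+IL6 against HC had 2, and with the floor doubled NC+IL6 against NC had 1. In HC+IL6 against NC+IL6, 2 genes were lower after centring and 1 after quantile normalization or cyclic loess. Of all genes, 115 were lower there as deposited, 139 after centring, 150 after quantile normalization and 154 after cyclic loess. For the other floors and the mean over probe sets, the share of all genes past 2-fold was not counted. Counts under those settings are therefore not read as a result about the list. Without a floor, probe sets under background on both arrays are counted too. With the floor doubled, the hypoxia log2 ratio of Slc11a2 was -0.09. Signals near the floor limit Slc40a1 and Slc11a2 most.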
